A study of Arabidopsis thaliana with 6 samples.

Results

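The genes described here are STOMAGEN, FMA and AT1G22690, 3 nuclear genes of Arabidopsis thaliana whose products or activity belong to the stomata, the pores of the leaf epidermis. They were taken as every probe set that the array annotation assigns to them. This gave 1 probe set for each gene, 3 of 22746 tested probe sets and 3 of the 13355 genes that a single-gene probe set measured. None of the 3 genes was also assigned to a probe set with several genes, and none of the probe set names carries the suffix that the maker gives to sets sharing sequence with other transcripts. By their locus names STOMAGEN (AT4G12970) lies on chromosome 4, FMA (AT3G24140, also named FAMA) on chromosome 3 and AT1G22690 on chromosome 1.

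The study compared wild-type plants with albino msh1 mutants on Affymetrix arrays, with 3 arrays a group. MSH1 encodes a MutS homolog of mitochondria and plastids. RNA came from the aerial part at 4 weeks of age, and each array was made from a separate biological replicate. All plants of both groups grew on MS medium with 1.5% sucrose, 12 h of light and 12 h of darkness at 24 °C. The labels give neither the accession nor the msh1 allele, and no green msh1 plants are among the samples, so genotype and albino state cannot be told apart. The tissue is a whole shoot, in which fewer cells of a type and less RNA per cell cannot be told apart. The photosynthetic genes RCA, LHCB4.1 and LHCB4.2 had wild-type means of 13.3, 13.5 and 12.2 on the log2 scale, and no probe set was paired with MSH1 in the annotation used here. Values are RMA summaries on the log2 scale, on which a difference of 1 is 2-fold. Over all probe sets the correlation between 2 arrays was 0.989 to 0.995 within a group and 0.969 to 0.985 between groups.

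A stoma forms when a cell of the young epidermis passes through a short series of divisions driven in turn by the related transcription factors SPCH, MUTE and FAMA, the last of which ends division and sets guard cell fate. Secreted peptides of the EPF family tune how many cells enter this path. Some of them repress it through receptors of the ERECTA family and TMM, while STOMAGEN, made by the mesophyll below the epidermis, competes with these and promotes stomata. AT1G22690 codes for a small protein of the gibberellin-regulated (GASA) family, and its promoter is widely used to drive expression in mature guard cells.

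STOMAGEN and AT1G22690 were both lower in the albino shoots, by about 1.8-fold and 2.2-fold, while the level of FMA did not differ beyond the spread between arrays. So the mesophyll peptide and the guard cell marker fell, and the guard cell fate factor had the same mean in both groups to within its error. Of the 3 genes, 2 passed an adjusted p of 0.05 as lower and 0 as higher (limma, Benjamini-Hochberg over all probe sets). Among all tested probe sets 11.2% passed, 7.44% as lower and 3.75% as higher. In the same 2 genes every albino array lay below every wild-type array, as in 19.8% of all probe sets; in 10.1% of probe sets every albino array lay above.

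STOMAGEN, the ligand, read 8.25, 7.91 and 8.09 in wild-type replicates 1 to 3 and 7.35, 7.38 and 6.97 in albino replicates 1 to 3. The groups did not overlap, and 0.535 separated the lowest wild-type from the highest albino array, which is more than the range within either group (0.339 in wild type and 0.406 in albino). The mean went from 8.08 ± 0.17 to 7.23 ± 0.23 (SD, n = 3 arrays each). STOMAGEN fell by 0.85 ± 0.14 on the log2 scale (SE; 95% interval of the difference -1.18 to -0.52; limma adjusted p = 0.0114). This left 55.4% of the wild-type level, a 1.80-fold fall with a 95% interval of 1.43-fold to 2.27-fold.

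FMA, the transcription factor, read 7.04, 7.16 and 6.97 in wild type and 6.79, 7.12 and 7.26 in albino shoots. The highest and the lowest of the 6 values were both from albino arrays, so the wild-type values lay wholly inside the albino range. The means were 7.06 ± 0.09 and 7.06 ± 0.24 (SD, n = 3). Their difference was 0.0014 ± 0.13 on the log2 scale (SE; limma adjusted p = 0.997). The 95% interval ran from -0.31 to 0.31, a span that leaves out a fall as large as the one fitted for STOMAGEN. The spread in albino shoots, a range of 0.466, was wider than the 0.187 of wild type, and with 3 arrays a group this difference in spread was not tested.

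AT1G22690, the guard cell marker, read 10.77, 10.49 and 10.39 in wild type and 9.47, 9.79 and 9.07 in albino shoots. The groups did not overlap, and the gap between them was 0.604, against ranges of 0.376 in wild type and 0.721 in albino. The mean went from 10.55 ± 0.20 to 9.44 ± 0.36 (SD, n = 3). AT1G22690 fell by 1.11 ± 0.19 (SE; 95% interval -1.55 to -0.67; limma adjusted p = 0.0117), to 46.4% of the wild-type level, which is a 2.16-fold fall with an interval of 1.59-fold to 2.92-fold. With wild-type replicate 2 left out the difference was -1.14, but it no longer passed (adjusted p = 0.0514).

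**Figure D1:**
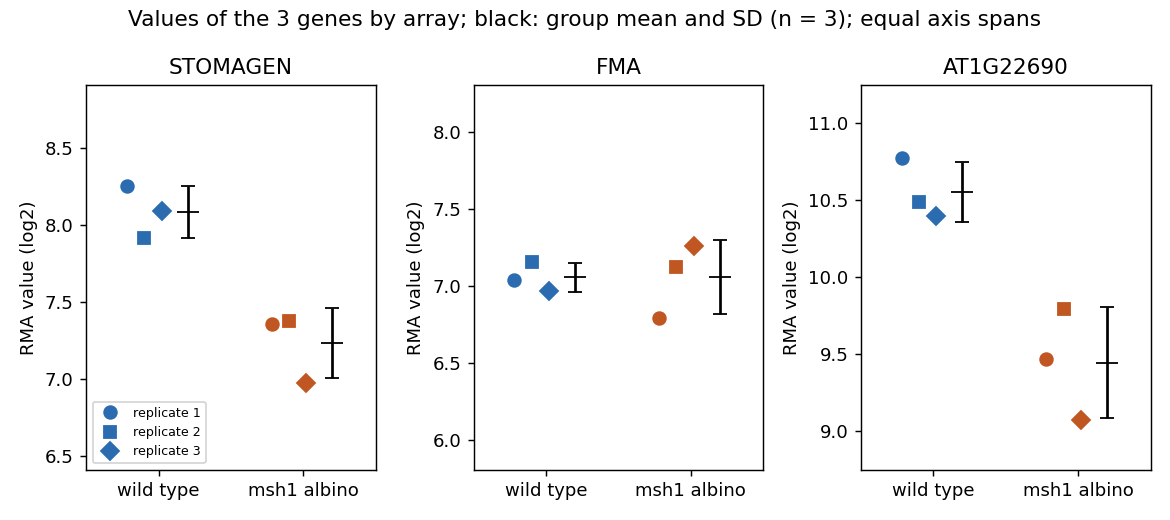
RMA value on the log2 scale (vertical axes of equal span) of STOMAGEN, FMA and AT1G22690 on each array, by group, with a symbol per replicate number and the group mean and SD (n = 3) in black. The albino arrays lie below all wild-type arrays for STOMAGEN and AT1G22690, and on both sides of them for FMA.

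Among all probe sets, 2.11% had a lower difference than STOMAGEN and 1.01% a lower one than AT1G22690, while FMA lay near the middle, with 58.7% below it. The median difference of all probe sets was -0.04. Of all calls 66.5% were lower in albino shoots as deposited, and this split moved with scaling, to 45.7% with arrays aligned on the 75th percentile, 36.3% on 8 reference genes, 49.6% on spiked controls, 45.4% after cyclic loess and 52.2% after quantile normalization. Alignment on the reference genes raised the median of all probe sets by 0.13. Under these 5 scalings STOMAGEN stayed lower (-0.87 to -0.72, adjusted p = 0.00721 to 0.0290), as did AT1G22690 (-1.13 to -0.98, adjusted p = 0.00124 to 0.00839). The spiked-control fit gave STOMAGEN, FMA and AT1G22690 the same SE, 0.271. Its limma adjusted p, 0.0290 for STOMAGEN and 0.00124 for AT1G22690, therefore does not reflect a gene's own spread. Each alignment on the 75th percentile, reference genes or spiked controls only shifts an array by 1 constant. It cannot change a difference relative to the median of all probe sets, which was -0.81 for STOMAGEN and -1.07 for AT1G22690. Cyclic loess and quantile normalization can change it, and gave -0.75 and -0.77 for STOMAGEN and -0.98 in both for AT1G22690. FMA ran from -0.02 on the spiked controls to 0.13 on the reference genes, or 0.04 to 0.09 relative to that median, and passed under none of them (adjusted p = 0.614 to 1.00).

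**Figure D2:**
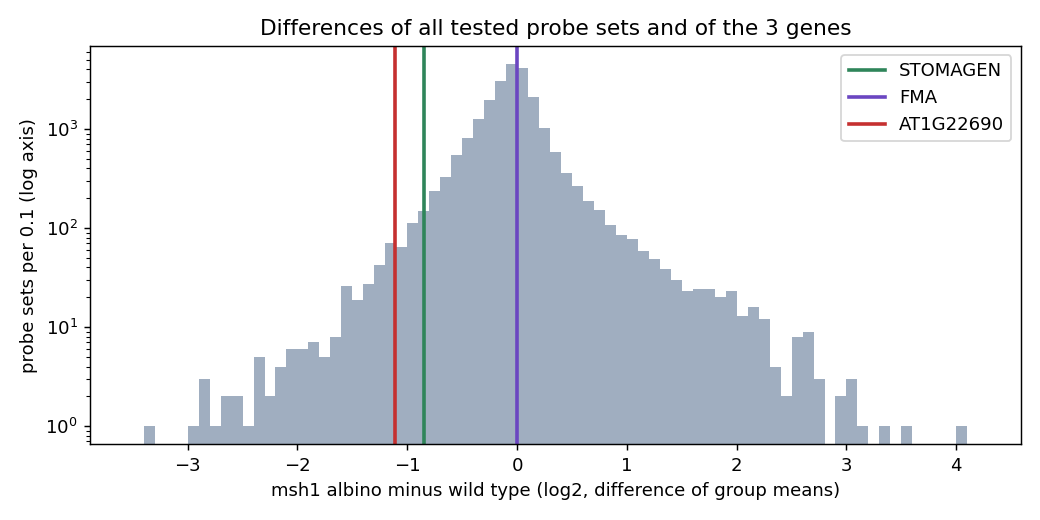
Histogram of the difference between group means (msh1 albino minus wild type, log2) over 22746 probe sets, in steps of 0.1 with a log vertical axis, with lines at the 3 genes. STOMAGEN (-0.85) and AT1G22690 (-1.11) lie in the lower tail, and FMA (0.0014) lies at the peak.

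The genes were also set against each other within each array, which asks whether they changed by unequal amounts. The value of STOMAGEN minus that of FMA was lower in albino than in wild-type arrays by a mean of 0.853, with no overlap between groups (two-sided exact permutation p = 0.1; 0.15 adjusted over the 3 pairs). The value of FMA minus that of AT1G22690 was higher in albino arrays by 1.11, again without overlap (exact permutation p = 0.1; 0.15 adjusted). For STOMAGEN against AT1G22690 the shift was 0.258 and the groups overlapped (exact permutation p = 0.2; 0.2 adjusted). With 3 against 3 arrays no p below 0.1 can be reached, so none of these pairs could pass. Albino replicate 3 was the lowest array for both STOMAGEN and AT1G22690 and the highest for FMA. Without it STOMAGEN and AT1G22690 were still called lower (-0.72, adjusted p = 0.0235, and -0.92, adjusted p = 0.0221), and FMA gave -0.10 (adjusted p = 0.755).

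Few other stomatal genes could be read, because single-gene probe sets were available for only 4 of 32 listed ligands, proteases, receptors, kinases, transcription factors and polarity factors of stomatal development, and for 1 of 16 listed guard cell markers. Of these 5 genes 1 passed as lower and 0 as higher, and their median difference was 0.01, against -0.04 over all probe sets. Of all probe sets 7.44% passed as lower and 3.75% as higher, and 5 genes are too few to differ clearly from these shares. The one that passed was ATSBT5.2 (AT1G20160), the subtilase also known as CRSP, which cleaves the repressing peptide EPF2. It read 7.17, 7.25 and 7.63 in wild type and 6.74, 6.34 and 6.65 in albino shoots. Every albino array was lower, as in 19.8% of all probe sets. ATSBT5.2 fell by 0.77 ± 0.16 (limma adjusted p = 0.0207), and it no longer passed when wild-type replicate 2 (adjusted p = 0.0663) or 3 (0.0579) was left out. None of 12 listed receptors and kinases had a single-gene probe set in the annotation used here. The same held for 6 listed regulators of STOMAGEN expression, HY5 and MP among them. In that annotation 8730 of 22746 tested probe sets were unnamed, and genes counted as not measured may lie among these.

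The transcription factors that act before FMA had RMA values near 4. SPCH, which starts the lineage, read 4.04, 4.17 and 4.09 in wild type and 4.44, 4.29 and 4.68 in albino shoots. Every albino array was higher, as in 10.1% of all probe sets. The difference of SPCH was 0.37 ± 0.12 and did not pass (limma adjusted p = 0.0927). MUTE, which acts between SPCH and FMA, had means of 3.99 ± 0.14 and 4.00 ± 0.04 (SD, n = 3). Its difference was 0.01 ± 0.10 (limma adjusted p = 0.956). Background was not measured here, so a signal this low may hold little transcript of MUTE or SPCH, and a change in it could be understated. ATBRXL2, a relative of the root regulator BRX that takes part in cell polarity of the lineage, had means of 4.93 ± 0.06 and 4.92 ± 0.19 and a difference of -0.0084 ± 0.12 (adjusted p = 0.980).

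Apart from AT1G22690, the one guard cell marker measured was AT4G14480 (BLUS1), a kinase of blue-light stomatal opening. It read 5.49, 5.45 and 5.51 in wild type and 5.50, 5.59 and 5.41 in albino shoots. Its difference was 0.02 ± 0.09, with a 95% interval of -0.19 to 0.23 (limma adjusted p = 0.943). That interval leaves out a fall as large as the one fitted for AT1G22690, and the difference between both genes was not tested. In wild type AT4G14480 lay above 45.4% of probe sets and AT1G22690 above 96.3%. A change in the lower signal of AT4G14480 could be understated.

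Further lists, of other EPF-like peptides, of stomatal movement and of additional development genes, were written after the values of STOMAGEN, FMA and AT1G22690 were seen. They held 59 genes, of which 8 were measured, 1 passed as lower and 0 as higher, with a median of 0.0024. Of all probe sets 7.44% passed as lower and 3.75% as higher, and 8 genes are too few to differ clearly from these shares. AT5G10310, an EPF-like peptide gene (EPFL1), had means of 4.49 ± 0.07 and 4.45 ± 0.24 and a difference of -0.04 ± 0.13 (limma adjusted p = 0.887). Of the movement genes CHX20, a cation exchanger of guard cells, gave 0.12 ± 0.08 (adjusted p = 0.434). In CHX20 and AT4G18950 every albino array was higher, as in 10.1% of all probe sets. CaS, a thylakoid protein required for stomatal closure by external calcium, was the gene that passed. It read 11.16, 10.96 and 10.89 in wild type and 9.66, 9.44 and 9.49 in albino shoots. Every albino array was lower, as in 19.8% of all probe sets. CaS fell by 1.47 ± 0.11 on the log2 scale (adjusted p = 0.00112). CaS is abundant in mesophyll chloroplasts too, so it marks no single cell type. The other movement genes, AT1G23200, AT5G06970 and AT4G18950, differed by -0.13 to 0.46, and the development genes AGL16 and SOL1 by -0.06 and 0.05, with no call.

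**Figure D3:**
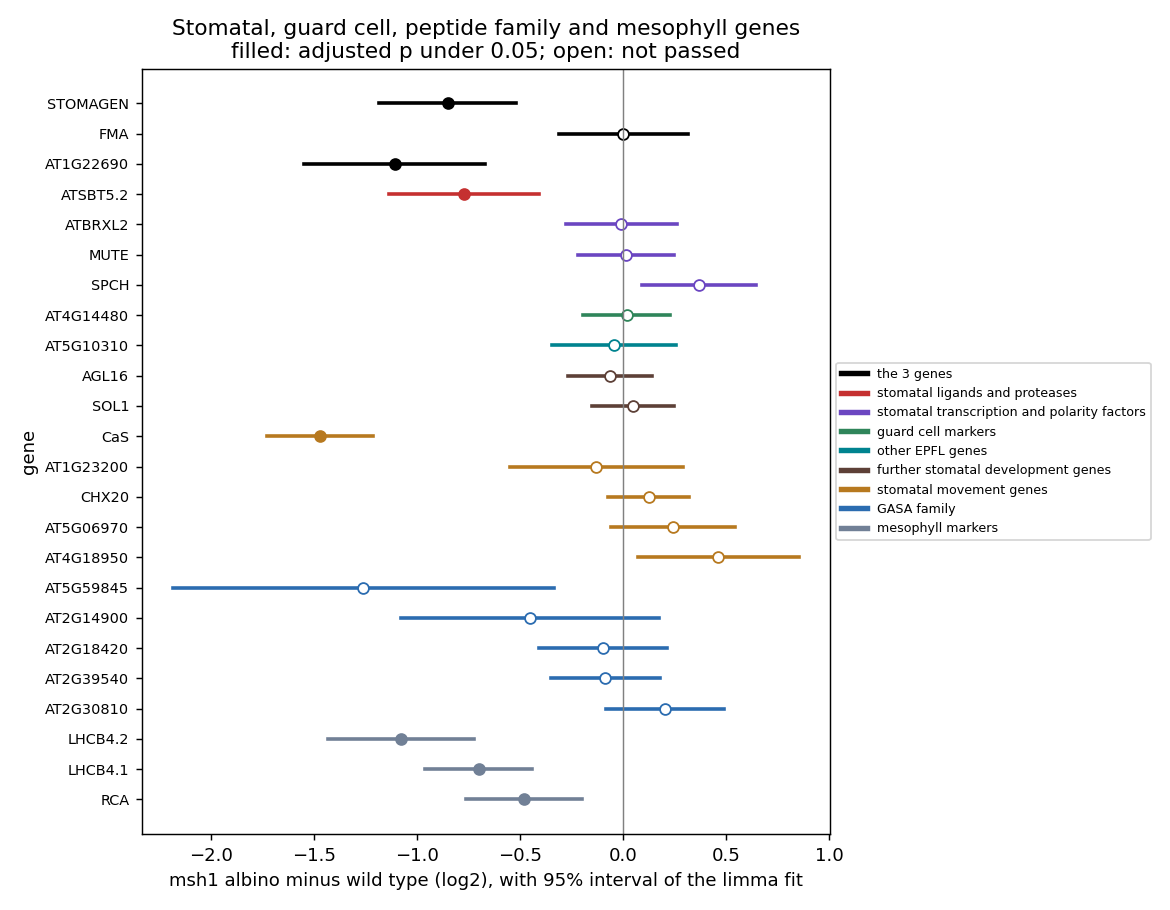
Difference between groups (msh1 albino minus wild type, log2) with its 95% interval for STOMAGEN, FMA, AT1G22690 and the measured genes of 8 lists, coloured by list, with filled points for an adjusted p under 0.05. STOMAGEN, AT1G22690, ATSBT5.2, CaS and the 3 mesophyll genes are called lower, and no gene shown is called higher.

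AT1G22690 was compared with its own peptide family. Of 13 other listed GASA genes 5 were measured, and none passed in either direction (median -0.10). As 11.2% of all probe sets passed, the lack of a call among these 5 genes says little about the family. Without albino replicate 2 one of them, AT2G14900, was called lower (-0.78, adjusted p = 0.0292). With all arrays AT2G14900 read 9.49, 9.91 and 9.42 in wild type and 8.89, 9.80 and 8.77 in albino shoots. Its groups overlapped, and the difference was -0.45 ± 0.27 (limma adjusted p = 0.363). In both genes albino replicate 2 was the highest of the albino arrays and albino replicate 3 the lowest. AT5G59845 read 4.73, 4.22 and 6.01 in wild type and 3.92, 3.69 and 3.58 in albino shoots. Its difference of -1.26 ± 0.40 was the largest of the family list and did not pass (adjusted p = 0.0875). The wild-type value of replicate 3 stood apart from the other two, and the wild-type SD was 0.92. With that array left out the difference was -0.75. AT2G30810, AT2G39540 and AT2G18420 had means between 3.24 and 4.29 in both groups and differences from -0.10 to 0.20.

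Of 13 listed genes that mark the mesophyll, the tissue that makes STOMAGEN, 3 were measured. As deposited all 3 were called lower, with a median difference of -0.70, where 7.44% of all probe sets were called lower. This count depended on scaling. After quantile normalization 1 of the 3 was called, LHCB4.2 (-0.87), while LHCB4.1 gave -0.27 (limma adjusted p = 0.143) and RCA -0.09 (adjusted p = 0.752). After cyclic loess RCA gave -0.28 (adjusted p = 0.182). RuBisCO activase, RCA, read 13.17, 13.29 and 13.30 in wild type and 12.90, 12.88 and 12.54 in albino shoots. The antenna protein genes LHCB4.1 and LHCB4.2 had differences of -0.70 ± 0.11 and -1.08 ± 0.15 (limma adjusted p = 0.00927 and 0.00657). The mean log2 level of the 3 genes was 12.96 to 12.99 in wild-type arrays and 12.1 to 12.4 in albino arrays. The difference of RCA was -0.48 ± 0.12 (adjusted p = 0.0435), and RCA no longer passed when any single array was left out (0.0517 to 0.144). RCA, LHCB4.1 and LHCB4.2 all act in photosynthesis, which is itself altered in albino tissue, so they do not count mesophyll cells, and their part in the fall of STOMAGEN was not tested. Markers of epidermis, trichome and vascular cells (8, 6 and 6 listed genes) had no member with a single-gene probe set in the annotation used here.

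Neighbouring genes on the chromosome were read as a local comparison, and they were chosen without a rule set beforehand. Next to STOMAGEN, AT4G12980 went from 6.43 ± 0.10 to 5.32 ± 0.34 (SD, n = 3), a difference of -1.11 ± 0.17 (limma adjusted p = 0.00840). Of all probe sets 7.44% were called lower. On the other side GILT (AT4G12960) went from 4.44 ± 1.05 to 3.87 ± 0.27 and did not pass (adjusted p = 0.511). AT1G22700, next to AT1G22690, differed by -0.15 ± 0.10 (adjusted p = 0.397), and AT1G22680 on the other side had no single-gene probe set. The genes on either side of FMA, AT3G24130 and AT3G24150, differed by -0.02 and -0.21 and did not pass (adjusted p = 0.949 and 0.330). Measured genes one place further out were AT4G12990 by STOMAGEN, AT3G24120 by FMA and AT1G22670 by AT1G22690. They differed by -0.29, -0.12 and 0.03 and did not pass (limma adjusted p = 0.0828, 0.478 and 0.913).

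The genes whose log2 values followed each gene most closely over the 6 arrays were found by Pearson correlation against 13354 other genes. With so many genes and 6 arrays in 2 groups, high values arise easily, and the correlations are a description. For STOMAGEN the closest were AT1G50290 (r = 0.997), AT1G22630 (0.997), AT1G11440 (0.996), ETFALPHA (0.996) and AT5G50100 (0.996). All were lower in albino shoots, which follows from choosing them by their likeness to a gene that fell. Differences ran from -0.27 for ETFALPHA, the alpha subunit of the mitochondrial electron transfer flavoprotein, to -1.19 for AT1G22630. ETFALPHA itself did not pass (limma adjusted p = 0.0959). The most opposed to STOMAGEN were AT1G56145 (-0.991), AT1G73120 (-0.987) and AT3G56200 (-0.987). For AT1G22690 the closest were AT2G04700 (0.996), AT4G36660 (0.994), AT1G06760 (0.994), AT5G50130 (0.994) and AT5G18200 (0.994). The most opposed to AT1G22690 were AT4G29200 (-0.988), AT3G15010 (-0.984) and AT3G56200 (-0.981), the last of which was also opposed to STOMAGEN and went from 7.49 ± 0.13 to 8.19 ± 0.14.

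The group means of FMA were nearly equal, so genes chosen for following it closely also had group means that lay close together. Its closest were AT4G04110 (r = 0.986), AT2G27280 (0.985), AT1G30080 (0.985), AGL48 (0.983) and AT2G23300 (0.982), all with group means of 4.24 or lower. The most opposed to FMA were AT4G26020 (-0.989), the beta-tubulin gene TUB5 (-0.983) and OTP86 (-0.977). TUB5 had means of 9.47 ± 0.03 and 9.48 ± 0.13 (SD, n = 3). The means of AT4G26020 (3.21 in both groups) and OTP86 (3.63 in wild type and 3.65 in albino) were low.

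STOMAGEN kept its call in all 16 alternatives, with adjusted p from 0.00698 to 0.0448, and AT1G22690 in 15 of 16. FMA passed in none of the 16, with differences from -0.12 to 0.13.

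**Figure D4:**
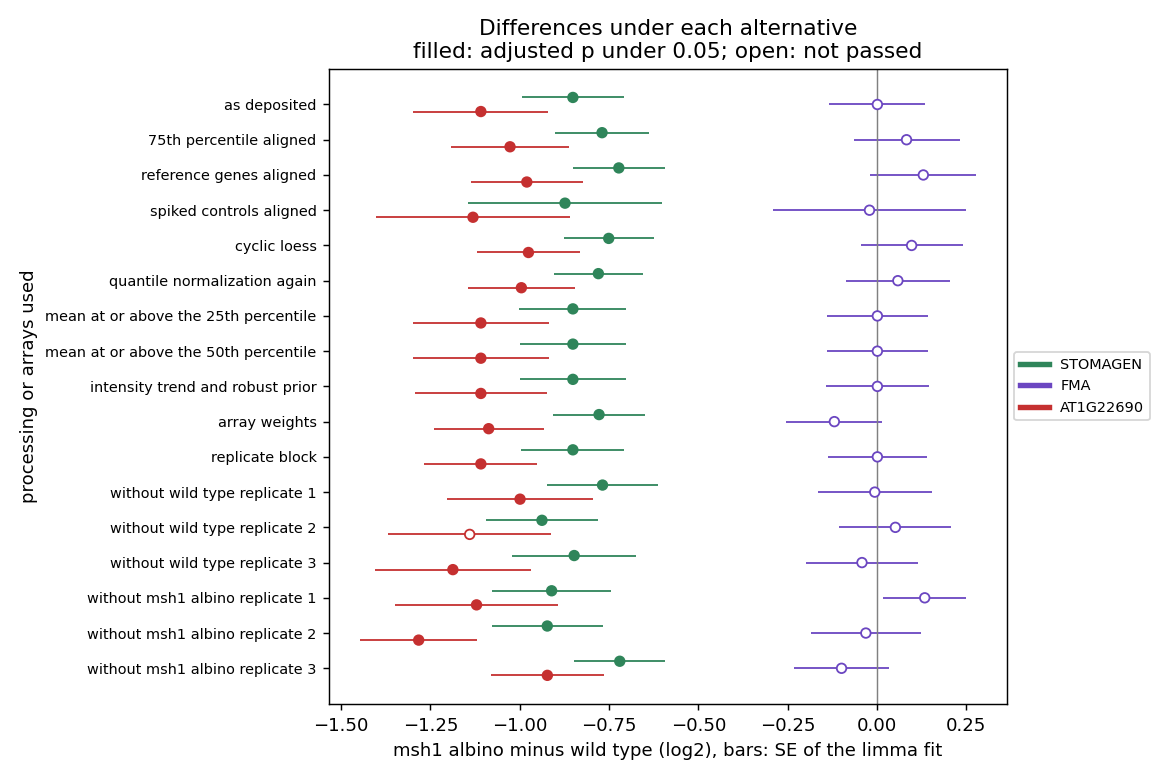
Difference between groups (log2) with its SE for STOMAGEN, FMA and AT1G22690 as deposited and under 16 alternatives, with filled points for an adjusted p under 0.05. STOMAGEN is filled throughout, AT1G22690 is open only without wild-type replicate 2, and FMA is open throughout and lies between -0.12 and 0.13.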

How the data were processed

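The authors deposited log2 values, 1 per probe set and array; RMA and affy are the tools named per the submitters' processing notes, with versions and settings not given there. RMA includes normalization between arrays, which hides a change in total RNA. The values were used as deposited. Apart from 64 control probe sets, 22746 were fitted with lmFit and eBayes of limma 3.58.1 in R 4.3.3 (two-sided, msh1 albino minus wild type, no covariate), with Benjamini-Hochberg adjustment over all of them and a threshold of 0.05. The method was tested on simulated data. With 3 arrays a group the SE of a difference had a median of 0.118. Depth is not a count here.

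Names came from the annotation of the array, updated through the TAIR10.1 table (names and neighbours only): 13513 had 1 gene, 503 several and 8730 were unnamed here. A gene with several probe sets was read from the one with the highest mean. Named were the 3 genes, up to 6 members of each list and, per gene, the 5 most alike and 3 most opposed by Pearson correlation. Genes, lists and tests were chosen with earlier results of these data known, and lists were counted, not tested. Alternatives were 5 scalings, 2 filters on the mean (25th and 50th percentile), a robust prior with an intensity trend, weights per array, the replicate block and leaving out each array. No sequence is shown.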

Additional observations from a re-analysis of the deposited data

How the results depend on the processing

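The number of arrays limits every value here, and leaving one out also lowers power. As deposited 2547 probe sets were called; 1153 were with spiked controls aligned, 1485 with the replicate block, and 851 to 2109 with 1 array left out (wild-type replicate 2 gave the lowest count, and replicate 3 of that group gave 1255). The labels state no pairing by replicate number. Deviations of same-numbered arrays from their group means correlated at 0.01, -0.34 and -0.02, and no array correlated best with its own number. With 3 arrays a group these deviations depend on each other, so they cannot exclude a pairing. Each replicate number holds 1 array per group, so the replicate block cannot change a difference, only its SE and p. With the block the limma adjusted p was 0.0281 for STOMAGEN (-0.85), 0.998 for FMA (0.0014) and 0.0188 for AT1G22690 (-1.11). The block ended the call of RCA (0.0971). With 1 array left out STOMAGEN ran from -0.94 to -0.72, AT1G22690 from -1.28 to -0.92 and FMA from -0.10 to 0.13. FMA, near 0 throughout, was also below 0 with spiked controls aligned (-0.021) and with array weights (-0.12). Of the 8 reference genes 1, AT4G33380, was called lower (-0.34, adjusted p = 0.0455), where 7.44% of all probe sets were. Another, AT5G12240, had low means, 3.68 in wild type and 3.65 in albino. The median of the 8 was -0.11. The cause of these shifts was not tested.

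Uncalled listed genes near 0 changed sign. With the 75th percentile aligned AGL16 gave 0.018, AT5G10310 0.038 and ATBRXL2 0.073. With the reference genes aligned AGL16 gave 0.065, AT2G39540 0.043, AT2G18420 0.030, AT5G10310 0.084 and ATBRXL2 0.12. Cyclic loess gave 0.030 for AGL16 and 0.037 for ATBRXL2, quantile normalization 0.0046 and array weights 0.044 for ATBRXL2, and the spiked controls -0.0052 for AT4G14480 and -0.0073 for MUTE. With 1 array left out AT2G39540 ran from -0.16 to 0.0054, AT2G18420 from -0.23 to 0.026, AT4G14480 from -0.028 to 0.061, AT5G10310 from -0.12 to 0.092, AT1G23200 from -0.27 to 0.057, MUTE from -0.055 to 0.083 and ATBRXL2 from -0.067 to 0.10. ATSBT5.2 lost its call with the reference genes (-0.64, adjusted p = 0.0503) or spiked controls (-0.80, 0.0625) aligned, and LHCB4.1 with the spiked controls (-0.72, 0.115) or quantile normalization (-0.27, 0.143). RCA lost its call in 13 of 16 alternatives, with differences from -0.55 to -0.09 over all 16. AT5G59845 was called lower with the spiked controls aligned (-1.28, adjusted p = 0.000131) and AT4G18950 higher with the reference genes aligned (0.59, 0.0383). The spiked-control fit gave all these listed genes, and STOMAGEN, FMA and AT1G22690, the same SE, 0.271, while AT5G59845 had 0.40 as deposited. Calls gained, lost or kept in that fit therefore do not reflect a gene's own spread.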
